A study of Mus musculus with 19 samples.

Results

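Gene activity in the failing left ventricle of the mouse was described genome-wide from the comparison of 7 mice with banding of the aorta and heart failure against 5 sham-operated mice, 12 of the 19 arrays of the series. Both groups were male C57BL/6 mice operated at 7 weeks of age, and the left ventricle, freed of atria and right ventricle, was taken 4 weeks later; a further 7 mice were banded without heart failure. Banding narrows the aorta, so that the ventricle ejects against a raised pressure, and sham mice underwent surgery without the band. No criterion of failure is given in the labels, and no genetic change or drug is named for any group. The labelled lung index, which the labels derive from lung weight and tibia length, lay between 17.92 and 24.62 in the mice with heart failure and between 8.2 and 9.38 in the sham mice. The labelled left ventricular index lay between 8.09 and 9.75 and between 4.82 and 5.47, and neither index overlapped between the groups.

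A ventricle under lasting pressure load enlarges its muscle cells, returns in part to genes of the fetal heart and lays down matrix. The adult heart draws most of its energy from fatty acids burnt in mitochondria, and loss of this capacity, altered potassium currents and a blunted response to adrenergic signals are textbook features of the failing heart. The series title names the extracellular matrix; the accounts below centre on the genes outside it.

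Each of 10733 genes was represented by 1 probe set, the brightest by its mean over 19 arrays among those with a log2 value above 4 on at least 5 arrays. Values are the deposited log2 values, a scale on which a difference of 1 is a 2-fold change, and each difference is the mean of the mice with heart failure minus the mean of the sham mice. A gene was called higher or lower where the adjusted p of the limma fit over all 19 arrays was under 0.05. Cardiomyocyte markers were the brightest of the marker lists, with a mean log2 value over 12 genes of 15.3 to 15.4 in the mice with heart failure and 15.4 to 15.5 in the sham mice.

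Several arrays stood apart. The array of heart failure mouse 5 correlated with the arrays of its own group at a mean r of 0.972, against 0.985 to 0.989 for the other 6, and in the sham group mouse 4 had the lowest value, 0.98. The signal of the array's 18S control, a readout of ribosomal RNA, was bright for sham mice 1, 2 and 3 (9.03 to 10.1), whereas sham mice 4 and 5 and the entire failing group gave a dim signal (5.64 to 7.62). The difference between 3′ and 5′ probe sets for actin, a measure of RNA integrity, was 0.661 to 0.905 with heart failure and 0.943 to 1.02 in sham, without overlap. The part of the 18S signal and of the actin measure in the results was not tested. The fits with the 18S set as a block, with only the arrays of the dim 18S set, or with the actin measure as a covariate are called the 3 technical fits. Their counts are given beside a list where they moved a count by over 1.5 times. They are named beside a gene where they ended its call. In the dim 18S set sham mice 4 and 5 are the only sham mice, against the entire failing group. The part of this smaller sham group in the calls lost there was not tested.

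Heart failure was accompanied by a shift of a large part of the measured genes, most of it small. Of the 10733 genes, 2193 were higher (20.4%) and 2027 lower (18.9%) than in sham, together 4220 (39.3%). The shares of 20.4% and 18.9% are set beside the list counts against sham below. The lists and their members were chosen with earlier results of these data known, so the list counts are a description and not a test. The median absolute log2 difference of the called genes was 0.45. Differences of under 1.5-fold made up 2789 of the calls, and against a threshold of 1.2-fold in the test itself 707 genes were higher (6.59%) and 495 lower (4.61%). As these are bulk samples, fewer cells of a type and less RNA per cell cannot be told apart here or in any list below. At least 2-fold changes were more often rises, with 401 genes higher (3.74%) and 152 lower (1.42%). All 7 mice with heart failure lay above all 5 sham mice for 912 genes (8.5%) and below them for 972 (9.06%). The balance of directions depended on scaling: after a second quantile normalization 1793 genes were higher and 2587 lower, and with array medians set equal 1869 and 2471, although the median difference over all genes moved only from 0.01 to -0.05 and -0.03. With only the 13 arrays of the dim 18S set, 1462 genes were higher (13.6%) and 1208 lower (11.3%). Sham mice 4 and 5 are the only sham mice in that set. With the actin measure as a covariate 1598 genes were higher (14.9%) and 1107 lower (10.3%).

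Among genes above 4 on all 12 arrays, those with the largest rises were mostly secreted or pericellular proteins, and the largest falls included the metabolic enzymes Ces1d, Acot1 and Fbp2 and the receptors Gpr22, Scara5 and Ret. Thbs4, a thrombospondin of stressed heart and tendon, read 11.66, 12.26 and 12.86 as the lowest, median and highest value with heart failure, and 8.15, 8.08, 7.88, 8.17 and 6.66 in sham mice 1 to 5. Its difference was 4.43 ± 0.36 (SE, n = 7 and 5; limma adjusted p = 5.8e-08), and all failing mice lay far above all sham mice. Cilp, Ltbp2, Comp, Lox, Postn, Pamr1 and the Wnt regulators Sfrp2 and Ccn5 followed, with differences of 2.99 to 4.31, all without overlap except Sfrp2. Over all genes 8.5% were higher without overlap. The genes named here were picked by the size of their difference, so their separation largely follows from the choice. The secreted matrix list, 25 genes that share these members, was higher in 25 of 25 (median 2.53), which is the subject of the series title and is not pursued further here.

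Nmrk2 and Fibin were the other genes among these 12 rises besides Myh7, which is described with the fetal genes. Nmrk2, a kinase that makes NAD from nicotinamide riboside in muscle, read 10.04 to 11.05 with heart failure (median 10.36) and 7.84, 7.26, 7.56, 6.63 and 7.66 in sham. The groups did not overlap, and the difference was 3.10 ± 0.29 (adjusted p = 3.4e-07). It also exceeded the banded mice without failure, by 1.22 (limma adjusted p = 0.0093).

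**Figure D1:**
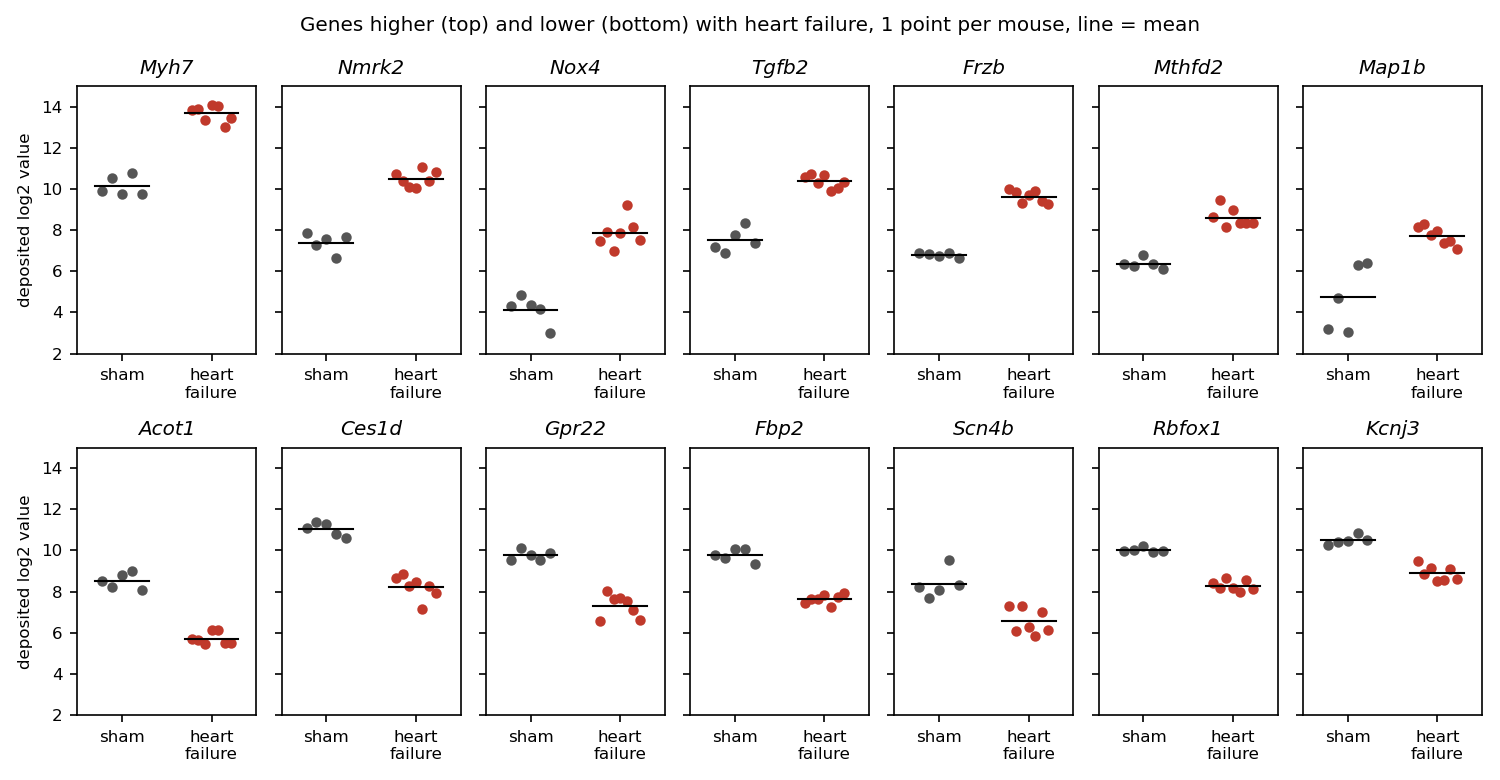
Deposited log2 value (y axis) of 7 genes that were higher and 7 that were lower with heart failure, with 1 point for each of the 5 sham mice and 7 mice with heart failure and a line at the group mean. In all 14 panels the points of the groups do not overlap. The genes were picked from those called, so this is a description. Sham values of Map1b spread from 3.05 to 6.42.

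Among the falls, Ces1d and Acot1 led. Ces1d, a carboxylesterase that releases fatty acids from stored fat, read 7.15, 8.25 and 8.86 as lowest, median and highest value with heart failure and 11.11, 11.39, 11.26, 10.81 and 10.61 in sham. Acot1, which cleaves fatty acyl-CoA and is a target of the receptor PPAR alpha, read 5.44 to 6.11 (median 5.63) against 8.52, 8.22, 8.81, 8.99 and 8.08. Both differences were -2.81, with SE 0.27 and 0.25. Neither gene overlapped between the groups; both belong to families of near-identical copies, so a share of their signal can come from a relative. Fbp2, the muscle fructose bisphosphatase, was lower by -2.14, its 7 values of 7.27 to 7.94 lying below the sham values of 9.36 to 10.08.

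Gpr22, a G protein-coupled receptor found in heart and brain, read 6.56, 7.56 and 8.01 with heart failure and 9.51, 10.11, 9.78, 9.51 and 9.86 in sham, a difference of -2.44 ± 0.27. Angpt1, the ligand that steadies vessels through the Tie2 receptor, was lower by -2.33 ± 0.18, with 6.57 to 7.44 against 9.04 to 9.53. Scara5, a ferritin receptor, differed by -2.22 and Ret, a receptor tyrosine kinase, by -1.98. Tbc1d10c (-2.24), Lgals4 (-2.21), Ano10 (-2.07) and Ttll1 (-2.03) completed the list with Cenpf, which is described with the mitosis genes. All 12 of the largest falls lay lower in all 7 failing mice than in all 5 sham mice, as did 9.06% of all genes. They were picked by the size of their difference, so this separation largely follows from the choice.

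Of all genes, 10 were measured above 4 in all 7 mice with heart failure and in no sham mouse, and 5 the other way round. Cthrc1, a secreted collagen triple helix protein, read 5.98 to 7.92 with heart failure and 2.31 to 3.5 in sham. Lman1l read 5.68 to 6.89 against 2.27 to 2.47, and Tbx15, a T-box factor, 5.56 to 6.70 against 3.13 to 3.44. Tnmd, Sprr1a and Slc1a3, a glutamate transporter, were the other 3 of the 6 brightest. In the opposite direction, Aqp4, a water channel, read 5.88, 5.44, 5.36, 5.34 and 5.25 in sham and 2.19 to 2.24 in all 7 mice with heart failure, next to the lowest value in the deposited table (2.19). It was followed by Mrgprh, Cngb3, Sned1 and Gm17546. Values this close to the lower end hold no measurement of how low a gene was.

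Genes of the fetal and hypertrophic programme were higher in 13 of 16 measured members, with a median difference of 1.23 against 0.01 over all genes. Myh7, the slow beta myosin heavy chain of the fetal mouse ventricle, read 13.03, 13.84 and 14.08 with heart failure and 9.91, 10.54, 9.75, 10.77 and 9.74 in sham. The difference was 3.52 ± 0.24 (adjusted p = 1.1e-08) without overlap between the groups. Nppa, the gene of atrial natriuretic peptide, read 15.39 to 15.55 in all 7 mice against 13.09, 12.93, 12.95, 13.93 and 13.54, a difference of 2.18 ± 0.15. Nppb, its B-type relative, differed by 1.11 ± 0.24, of which part rested on sham mouse 4, whose value of 11.74 lay below the other sham values of 13.51 to 13.66; without that mouse the difference was 0.74. Uchl1 (2.07), Enah (1.61), the calcineurin regulator Rcan1 (1.6) and skeletal actin Acta1 (1.22) were also higher.

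The members that were not called were Acta2, smooth muscle actin, and the atrial light chains Myl4 and Myl7. The light chains varied widely between mice. Myl7 read 13.89, 9.82, 2.30, 6.03, 8.56, 3.17 and 2.34 in heart failure mice 1 to 7 and 7.53, 9.79, 9.89, 12.67 and 11.49 in sham mice 1 to 5. Sln, sarcolipin of the atrium, ran the same way, from 2.19 to 12.92 with heart failure and from 3.69 to 10.56 in sham. The values of Nppa in the failing mice, given above, were close together in all 7 mice, those with low and those with high atrial markers alike. In sham, Nppa read 13.93 and 13.54 in mice 4 and 5, the sham mice highest for Myl7, and 12.93 to 13.09 in mice 1 to 3. The part of atrial tissue in the Nppa values was not tested. Of the 7 measured atrial markers, 1 was higher (Nppa) and 1 lower (Kcnj3), and the mean level over the 7 ran from 7.03 to 11.95 with heart failure and from 8.24 to 11.1 in sham.

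Promoters of this list are shown because TEAD factors, which bind the MCAT motif CATTCC, are textbook regulators of fetal muscle genes. The stretches are 250 bases before the annotated start from RefSeq (GRCm38.p6), written along the gene's strand, and the capitals mark CATTCC or its complement GGAATG. Myh7 lies at chr14:54994627-54994876 (minus strand; the first of 2 annotated starts), Nppb at chr4:147985650-147985899 (plus strand) and Acta1 at chr8:123894776-123895025 (minus strand).
Myh7: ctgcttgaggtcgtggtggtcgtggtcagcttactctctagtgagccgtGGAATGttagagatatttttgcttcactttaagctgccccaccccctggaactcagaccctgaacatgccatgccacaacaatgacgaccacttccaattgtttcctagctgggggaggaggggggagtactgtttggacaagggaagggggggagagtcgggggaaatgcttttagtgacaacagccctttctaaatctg
Nppb: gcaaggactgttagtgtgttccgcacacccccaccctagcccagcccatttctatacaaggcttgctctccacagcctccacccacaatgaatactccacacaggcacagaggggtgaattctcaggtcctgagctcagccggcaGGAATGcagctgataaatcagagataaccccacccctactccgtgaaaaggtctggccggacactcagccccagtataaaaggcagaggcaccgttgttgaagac
Acta1: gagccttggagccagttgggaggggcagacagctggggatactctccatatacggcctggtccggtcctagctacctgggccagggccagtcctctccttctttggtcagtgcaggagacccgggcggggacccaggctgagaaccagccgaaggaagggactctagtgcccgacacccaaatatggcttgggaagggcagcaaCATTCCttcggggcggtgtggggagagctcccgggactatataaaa
The motif began 201 bases before the start in Myh7, 105 in Nppb and 46 in Acta1. It was present, on either strand, in 6 of 15 list members with a promoter in the table (40%), in 15.8% of the 304 promoters of genes at least 2-fold higher, in 13.6% of the 110 of genes at least 2-fold lower and in 10.5% of all 8715. The shares describe letters in these windows and say nothing of binding.

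Contractile genes changed far less than the fetal list. Of 23 sarcomere and Z-disc genes, 7 were higher and 2 lower, with a median difference of 0.08. The rises were in linking and structural proteins: filamin C (Flnc, 0.90 ± 0.12), desmin (Des, 0.76 ± 0.08) and Pdlim3 (0.75 ± 0.14). Des read 13.92, 14.13 and 14.29 with heart failure and 13.20, 13.24, 13.27, 13.68 and 13.42 in sham, with no overlap. The falls were small, in troponin I (Tnni3, -0.27) and alpha myosin (Myh6, -0.15); Myh6 lost its call with the 18S signal as a block, in the dim 18S set, with the actin covariate, with the mean of probe sets, after the second quantile normalization, against the 1.2-fold threshold, in the fit of the 12 arrays alone and without sham mouse 1 or 2.

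Genes for burning fatty acids were lower, and none was higher. Of 25 measured genes of fatty acid uptake and beta-oxidation 19 were lower, with a median of -0.40. Acaa2, the mitochondrial thiolase of the last step, read 12.74, 13.07 and 13.11 with heart failure and 13.85, 13.85, 13.83, 14.09 and 13.94 in sham, a difference of -0.93 ± 0.09 (adjusted p = 5.0e-07). The fatty acid transporter Slc27a1 was lower by -0.83 and the uncoupling protein Ucp3 by -1.02, the latter with groups that overlapped and a call that was lost without sham mouse 4, with the actin covariate, with array weights and with the mean of probe sets. Ppara, the receptor that drives this set of genes, was lower by -0.43, a call that was lost in the dim 18S set. The mean level of the list over its 25 genes stood 0.38 to 0.57 below the sham mean in each of the 7 failing mice, and the sham mice ranged from -0.07 to 0.17 around it.

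The respiratory chain was lower by less, in most of its genes. Complex I, which takes electrons from NADH, had 31 of 33 measured genes lower and none higher (median -0.28), and complexes II to V had 30 of 40 lower and none higher (median -0.24). Ndufs4, a complex I subunit, read 11.65, 11.85 and 12.10 with heart failure against 12.46, 12.53, 12.41, 12.28 and 12.19, a difference of -0.51 ± 0.08. Ndufv3 differed by -0.48 and Ndufb2 by -0.45, the latter lost with the actin covariate. Among the complexes II to V, the ATP synthase genes Atp5e (-0.53 ± 0.06) and Atp5g2 (-0.47 ± 0.06) were separated without overlap. With the actin covariate the lower count was 16 for complex I and 21 for complexes II to V, and in the dim 18S set 23 and 18.

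The machinery that makes mitochondrial proteins moved the same way. Of 51 mitochondrial ribosomal protein genes 38 were lower and none higher (median -0.27), and 22 were lower in the dim 18S set. Mrps28 read 10.83, 11.07 and 11.16 with heart failure and 11.76, 11.77, 11.80, 11.51 and 11.66 in sham (-0.67 ± 0.08), and Mrps36 and Mrps11 differed by -0.63 and -0.61. Cytosolic ribosomal proteins gave another picture, with 5 of 36 lower, none higher and a median of -0.05, and with the 18S signal as a block 1 was lower. In mitochondrial import, dynamics and biogenesis 8 of 30 were lower and 1 higher (5 and 1 in the dim 18S set): the protease subunit Clpp was lower by -0.42 and the protease Lonp1 higher by 0.39, the latter lost with the actin covariate.

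Breakdown of branched-chain amino acids and ketones was lower in 15 of 20 genes and higher in 1, with a median of -0.42. Ppm1k, the phosphatase that switches on branched-chain ketoacid dehydrogenase, read 9.41, 9.69 and 10.06 with heart failure and 10.39, 10.62, 10.49, 11.09 and 10.57 in sham (-0.92 ± 0.14). Bckdhb, a subunit of that dehydrogenase, differed by -0.85 and Mmut, methylmalonyl-CoA mutase, by -0.77. The exception was Bdh1, the first enzyme of ketone body oxidation. It read 13.02, 13.23 and 13.78 against 11.83, 11.92, 11.58, 11.80 and 12.30, a difference of 1.46 ± 0.15 (adjusted p = 6.4e-07) without overlap. It was the single gene of this list that was called higher.

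Of 20 genes of glucose uptake and glycolysis, 5 were higher and 4 lower (median 0.04; 3 and 3 with the actin covariate), beside shares of 20.4% and 18.9% over all genes. Pfkp, the platelet form of phosphofructokinase, was higher by 1.34 ± 0.14, with 10.99 to 11.78 against 9.72 to 10.12, and hexokinase 1 (Hk1) by 0.55. The muscle enolase Eno3 (-0.42), the insulin-responsive glucose transporter Slc2a4 (-0.38) and lactate dehydrogenase B (Ldhb, -0.30, lost with the actin covariate) were lower. A second probe set of Slc2a4 differed by -0.115, without passing at an unadjusted 0.05, and the call was lost with the mean of probe sets. In the citric acid cycle 9 of 18 were lower and none higher (median -0.19), with Suclg1, a succinyl-CoA ligase subunit, at -0.31.

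**Figure D2:**
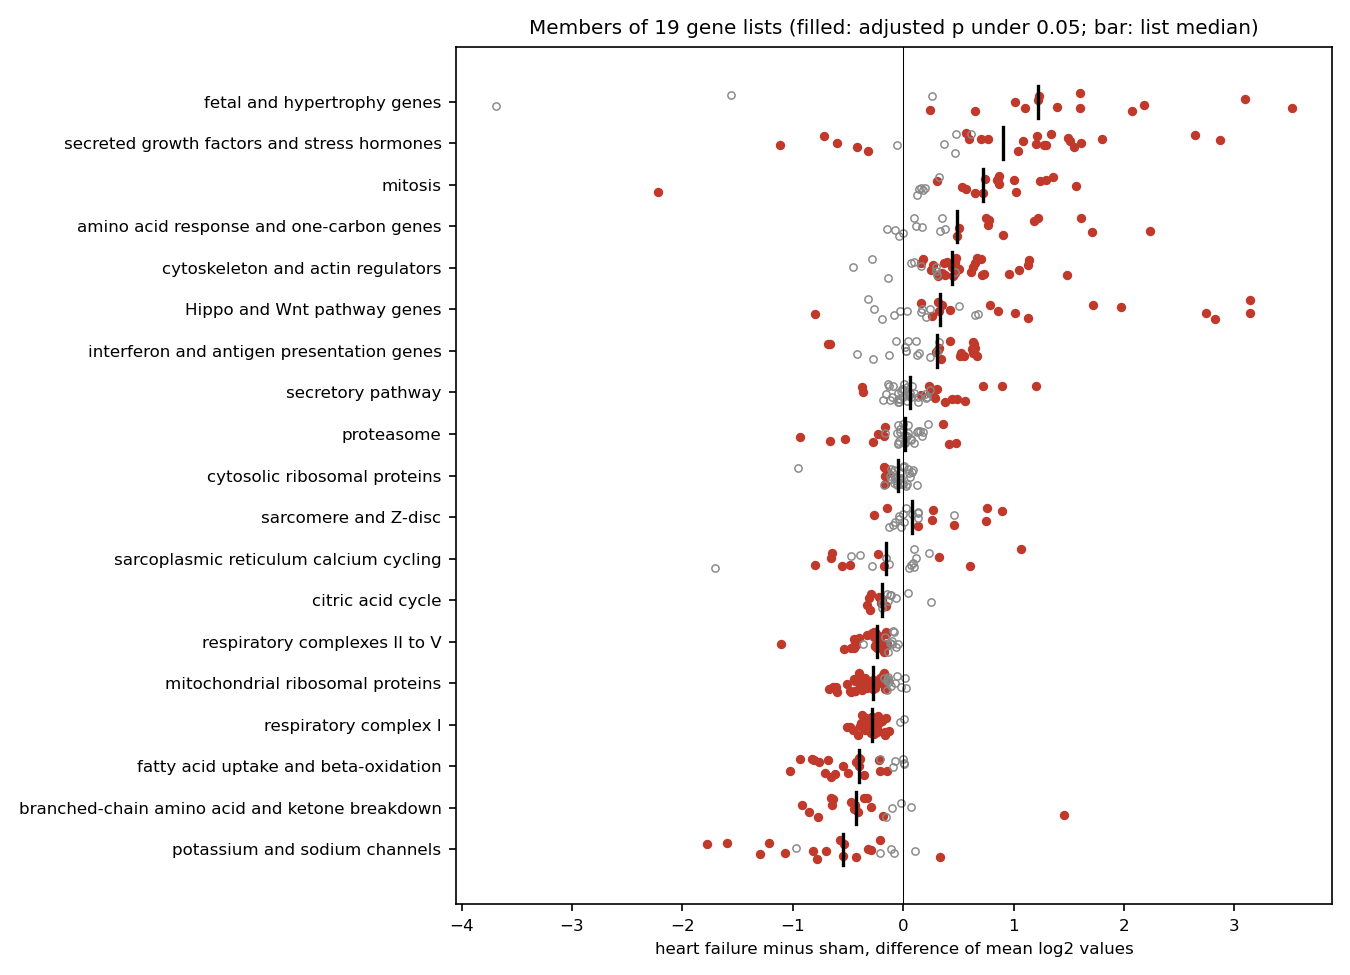
Difference of mean log2 values, heart failure minus sham (x axis), for every measured member of 19 gene lists, with filled points for genes past an adjusted p of 0.05, open points for the others and a bar at the list median. Lists of energy metabolism and channels lie left of 0 with medians down to -0.55, and the fetal list lies furthest to the right with a median of 1.23.

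Potassium and sodium channel genes, which set the length and shape of the action potential, were lower in 15 of 21 measured members and higher in 1, with a median of -0.55. Scn4b, a sodium channel beta subunit, read 5.86, 6.28 and 7.32 with heart failure and 8.21, 7.68, 8.06, 9.51 and 8.30 in sham, a difference of -1.78 ± 0.30 without overlap. Kcnj3, a subunit of the acetylcholine-gated potassium channel and one of the atrial markers, read 8.51, 8.87 and 9.49 against 10.25, 10.40, 10.44, 10.85 and 10.49 (-1.59 ± 0.19), and its partner Kcnj5 differed by -1.07. Kcnv2, a silent subunit, was lower by -1.30, and Kcnd2, which carries the fast transient outward current, by -1.22. The 1 gene that was higher was Atp1b1, the beta subunit of the sodium pump (0.34), a call that was lost in the dim 18S set. The mean level of the 21 genes stood 0.52 to 0.75 below the sham mean in the 7 failing mice.

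In calcium cycling 7 of 23 genes were lower and 3 higher (median -0.16), and 5 and 0 in the dim 18S set. The calcium pump of the sarcoplasmic reticulum, Atp2a2, read 15.49 to 15.72 with heart failure and 15.60 to 15.76 in sham; the groups overlapped, and its difference of -0.12 did not pass (adjusted p = 0.064). Its 4 other probe sets, all dimmer, differed by -0.112, -0.228, -0.45 and -1.098, with unadjusted limma p of 0.0338, 0.000337, 0.00134 and 0.0251. Trdn, triadin of the calcium release complex, was lower by -0.80 ± 0.09, with 12.10 to 12.37 against 12.81 to 13.26, and its other probe sets gave differences of -0.20 to -1.90. Camk2a (-0.65) and the calcium channel subunit Cacnb2 (-0.65) were lower. The 2 other Camk2a probe sets, both dimmer, differed by -0.392 and -0.402, without passing at an unadjusted 0.05. The sodium-calcium exchanger Slc8a1 was higher by 0.60 ± 0.11; this call was lost in the dim 18S set. The IP3 receptor Itpr2 was higher by 1.07, a call that was lost in the dim 18S set and with the actin covariate, and its 2 other probe sets differed by 0.221 and 0.167, without passing at an unadjusted 0.05.

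Of 29 genes of adrenergic and cyclic AMP signalling 6 were higher and 7 lower, close to the shares of 20.4% and 18.9% over all genes. The alpha-1B receptor Adra1b was lower by -1.67 ± 0.31, with 3.59, 4.98 and 5.09 as lowest, median and highest value with heart failure and 5.79, 5.63, 6.80, 6.89 and 7.10 in sham. Rgs2, which dampens signalling by Gq proteins, differed by -1.50 and the phosphodiesterase Pde4d by -0.90. Grk5, a kinase that desensitises adrenergic receptors, was higher: it read 10.52, 10.78 and 10.95 against 9.60, 9.37, 9.83, 9.49 and 9.88, a difference of 1.14 ± 0.11 without overlap. Pde1a, a calmodulin-stimulated phosphodiesterase, was higher by 1.71.

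The amino acid response was higher in 11 of 21 measured genes, lower in none, with a median of 0.49. This set is switched on by the factor Atf4 when amino acids are short or mitochondria are stressed. Mthfd2, the mitochondrial one-carbon enzyme of growing cells, read 8.15, 8.36 and 9.46 with heart failure against 6.37, 6.23, 6.77, 6.37 and 6.10, a difference of 2.23 ± 0.19 (adjusted p = 8.4e-08). The amino acid transporter Slc7a5 was higher by 1.71 ± 0.14, asparagine synthetase (Asns) by 1.61 ± 0.24, Phgdh of serine synthesis by 1.19 and Atf4 itself by 0.75. Of these 5 genes only Phgdh overlapped between the groups, at 5.02 to 6.07 against 3.67 to 5.16.

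Genes of tRNA charging, translation factors and ribosome biogenesis rose more often than they fell, beside shares of 20.4% higher and 18.9% lower over all genes. The ribosomal protein genes given above did not. Of 20 aminoacyl-tRNA synthetases, 9 were higher and 3 lower (median 0.13), led by Aars (0.70 ± 0.08), Cars (0.60, lost with the actin covariate) and Nars (0.49), with Farsb lower by -0.44 (lost with the actin covariate and in the dim 18S set). Translation factors had 12 of 32 higher and 4 lower, which became 7 and 3 with the 18S block, 5 and 1 in the dim 18S set and 5 and 0 with the actin covariate. Ribosome biogenesis had 10 of 29 higher and 2 lower (median 0.16), among them Rrp12 (0.79) and Nop58 (0.53, lost with the 18S block and in the dim 18S set). Myc, a transcription factor that drives these genes, read 6.21, 6.55 and 7.40 against 4.12, 5.23, 5.09, 5.68 and 5.30, a difference of 1.58 ± 0.26.

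Genes of folding in the endoplasmic reticulum did not move as a set. Of 30, 6 were higher and 8 lower (median -0.04); with the 18S block the counts were 2 and 4, in the dim 18S set 2 and 1, and with the actin covariate 0 and 2. Sdf2l1 (-1.12), Hyou1 (-0.68) and Manf (-0.54), targets of the unfolded protein response, were lower, and P4hb (0.48) and calreticulin (Calr, 0.37) were higher. All 5 lost their call with the actin covariate, Hyou1, Manf and Calr in all 3 technical fits, Sdf2l1 in the dim 18S set and Manf also without sham mouse 2, 3 or 5. The secretory pathway had 15 of 49 higher and 2 lower (7 and 2 in the dim 18S set), with the signal peptidase subunit Spcs3 higher by 0.73 ± 0.07. Kdelr3, a retrieval receptor, was higher by 0.90, a call that was lost without sham mouse 4 and in the dim 18S set.

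Cytosolic chaperones had 9 of 26 higher and 2 lower, led by Hspa1b (1.06, lost in the dim 18S set) and Hsp90aa1 (0.77 ± 0.12). The proteasome had 3 of 35 higher and 7 lower, with the activator subunit Psme1 lower by -0.94 ± 0.08 (11.23 to 11.63 against 12.25 to 12.47), Psmb2 lower by -0.66 (lost with the actin covariate) and the immune subunit Psmb10 higher by 0.48; with the 18S block the counts were 8 higher and 4 lower, in the dim 18S set 4 and 3, and with the actin covariate 4 and 1. The 7 lower proteasome genes stand beside a share of 18.9% over all genes. The muscle ubiquitin ligase subunits Asb15 (-1.26; its second probe set, at -0.418, did not pass at an unadjusted 0.05) and Asb14 (-0.92) were lower. Of 33 autophagy and lysosome genes 12 were higher and 5 lower (6 and 2 with the actin covariate); the protease Ctsk was higher by 2.32 and Ctsz by 1.03, while Pink1, a kinase of mitochondrial clearance, was lower by -0.68.

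Cell division genes stood higher in 6 of the 7 failing ventricles. Of 23 measured mitosis genes 16 were higher and 1 lower, with a median of 0.72, and a further 11 listed genes lay below the filter. Of the 23, 15 lay above 4 on all 12 arrays and 8 did not; Racgap1 was above 4 on 5 failing and 0 sham arrays and Cdk1 on 6 and 1, so some members passed the filter mainly in the group where they were high, and the count is a description. With the filter at 5 it was 10 of 15. Cdk1, the kinase that starts mitosis, read 5.57, 5.53, 5.38, 5.41, 3.81, 5.61 and 6.20 in heart failure mice 1 to 7 and 3.95, 3.84, 4.10, 3.25 and 3.85 in sham mice 1 to 5. Of the failing mice 6 lay above all sham mice and mouse 5 among them; the difference was 1.56 ± 0.29 (adjusted p = 4.0e-04), and 1.82 without mouse 5. Ube2c, which marks mitotic proteins for destruction, was higher by 1.36, Racgap1 of cytokinesis by 1.30, the condensin subunit Smc4 by 1.24, cyclin A2 (Ccna2) by 1.03 and the proliferation marker Mki67 by 1.002. The call of Ube2c was lost with the actin covariate, those of Racgap1 and Ccna2 in the dim 18S set and that of Mki67 in both. The count of 16 fell to 10 with the 18S block, 5 in the dim 18S set and 6 with the actin covariate, and was 16 without mouse 5.

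The single mitosis gene that was lower was Cenpf, a kinetochore protein that also binds microtubules in other stages. It read 4.65, 5.26 and 5.91 with heart failure and 7.55, 7.81, 7.17, 7.63 and 7.60 in sham, without overlap (-2.22 ± 0.24). DNA replication genes had 7 of 24 higher and 2 lower (median 0.32). Mcm2 of the replicative helicase read 7.27 to 7.48 in 6 failing mice, 5.2 in mouse 5 and 5.63 to 6.31 in sham, and was higher by 1.10. Without mouse 5 the count of higher replication genes rose from 7 to 11 and the Mcm2 difference to 1.41; the Mcm2 call was lost with the 18S block and in the dim 18S set. A second Mcm2 probe set differed by 0.184, without passing at an unadjusted 0.05. Pola1, a polymerase subunit, was lower by -0.65, a call that was lost with the actin covariate and in the dim 18S set. In the dim 18S set 4 replication genes were higher. Among cell cycle regulators 7 of 28 were higher and 2 lower, beside shares of 20.4% and 18.9% over all genes. With the 18S block 3 were higher, and in the dim 18S set 2. The inhibitor Cdkn1a was higher by 1.33 and Gadd45b, whose second probe set (0.798) did not pass at an unadjusted 0.05, by 1.45. Both genes lost their call in all 3 technical fits, and Cdkn1a also without sham mouse 2 or 4.

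Promoters of the mitosis list are shown because the CCAAT box, bound by NF-Y, and the element TTTGAA, bound by the DREAM and MuvB complexes, are textbook features of mitotic promoters. The windows are again 250 bases before the start from RefSeq (GRCm38.p6), and the capitals mark CCAAT or TTTGAA on either strand (ATTGG and TTCAAA are the complements). Cdk1 lies at chr10:69352913-69353162 (minus strand), Ube2c at chr2:164769679-164769928 (plus strand) and Racgap1 at chr15:99651657-99651906 (minus strand).
Cdk1: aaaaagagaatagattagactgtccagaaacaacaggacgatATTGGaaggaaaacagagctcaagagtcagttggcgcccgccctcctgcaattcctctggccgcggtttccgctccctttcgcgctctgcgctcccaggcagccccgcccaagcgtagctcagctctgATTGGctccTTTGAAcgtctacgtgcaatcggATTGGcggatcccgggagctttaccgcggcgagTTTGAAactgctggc
Ube2c: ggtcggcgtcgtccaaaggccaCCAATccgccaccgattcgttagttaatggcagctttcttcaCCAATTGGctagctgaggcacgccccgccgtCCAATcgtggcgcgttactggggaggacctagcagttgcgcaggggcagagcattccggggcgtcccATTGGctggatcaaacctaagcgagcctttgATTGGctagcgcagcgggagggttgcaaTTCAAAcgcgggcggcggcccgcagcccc
Racgap1: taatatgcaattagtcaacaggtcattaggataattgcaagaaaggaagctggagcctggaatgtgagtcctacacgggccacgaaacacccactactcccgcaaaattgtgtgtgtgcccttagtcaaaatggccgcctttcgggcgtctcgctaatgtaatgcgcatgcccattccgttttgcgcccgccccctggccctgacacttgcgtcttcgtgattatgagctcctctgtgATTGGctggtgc
Of the 19 mitosis genes with a promoter in the table, 16 held CCAAT (84.2%) and 10 held TTTGAA (52.6%), against 36.1% and 10.1% of all 8715 promoters. Racgap1 held CCAAT alone in its window. Among promoters of genes at least 2-fold lower CCAAT stood in 45.5% and TTTGAA in 12.7%, and among those at least 2-fold higher in 32.2% and 12.8%.

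A further 5 motifs were searched on both strands. The nuclear receptor motif AAGGTCA, bound by PPAR and its relatives, stood in 5.45% of promoters of genes at least 2-fold lower, 1.64% of those at least 2-fold higher and 2.59% of all. The AP-1 motif TGAGTCA stood in 3.64%, 3.95% and 2.83% in that order, the E-box CACGTG in 5.45%, 7.89% and 8.70%, and the cyclic AMP motif TGACGTCA in 1.82%, 2.96% and 2.75%. The serum response element, searched in 1 of its forms, stood in none of the promoters of either set. The median GC share of the windows was 54.4% in the genes at least 2-fold lower, 60.8% in those at least 2-fold higher and 60.4% in all. With 110 and 304 promoters in the sets, these shares rest on few genes, as the 6 promoters with AAGGTCA show.

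Cytoskeleton and actin regulators moved in one direction, with 29 of 39 higher, none lower and a median of 0.44. Capg, an actin filament capping protein, read 8.53, 8.81 and 8.99 with heart failure against 7.60, 6.65, 7.74, 7.52 and 7.07, a difference of 1.48 ± 0.18. Alpha-actinin 1 (Actn1, 1.14 ± 0.13) and zyxin (Zyx, 1.13 ± 0.16), proteins of adhesion sites, were also higher without overlap. In the dim 18S set 17 of the 39 were higher. Microtubule genes had 7 of 24 higher and 3 lower (5 and 1 with the actin covariate). Map1b, a microtubule-binding protein, was higher by 2.97 ± 0.70; sham mice 4 and 5 read 6.30 and 6.42 and the other sham mice 3.05 to 4.72, with the 18S block the difference was 1.28, and the call was lost with the actin covariate. Tubb2a (1.04) and Tubb2b (1.11), near-identical beta tubulins, were higher, with mouse 5 lowest of the failing group in both.

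Hippo and Wnt pathway genes were higher in 16 of 30 and lower in 1 (median 0.34). Frzb, a secreted Wnt inhibitor, read 9.27, 9.68 and 9.98 against 6.87, 6.86, 6.76, 6.88 and 6.64, a difference of 2.82 ± 0.20 without overlap. Wnt5a, a ligand of the non-canonical pathway, was the gene that was lower (-0.80). Secreted growth factors and stress hormones were higher in 18 of 28 and lower in 5 (median 0.91; 14 and 3 in the dim 18S set). Tgfb2 read 9.92, 10.32 and 10.72 with heart failure against 7.18, 6.87, 7.77, 8.32 and 7.36 (2.87 ± 0.23), and Tgfb3 was higher by 1.80. Pleiotrophin (Ptn, 2.65), the activin antagonist Fstl3 (1.61) and Bmp4 (1.2, lost with the actin covariate and in the dim 18S set) were higher as well. The heart muscle growth factors Fgf16 (-1.11) and cardiotrophin 1 (Ctf1, -0.71, lost with the actin covariate) were lower.

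Transcription factors of the heart moved singly rather than as a set, with 7 of 30 higher and 3 lower, beside 20.4% and 18.9% over all genes. Their median was -0.06, and the counts were 6 and 5 with the 18S block. Runx1 read 5.73, 6.10 and 6.73 with heart failure against 3.56, 2.68, 4.27, 4.27 and 4.27, a difference of 2.30 ± 0.26, and Sox9 was higher by 1.11. The mineralocorticoid receptor Nr3c2 (-1.18, lost with the actin covariate) and Hopx, a homeodomain protein of muscle cells (-0.98 ± 0.12), were lower. The splicing factors Rbfox1 and Celf2, known to act against each other in the heart, diverged: Rbfox1 read 7.96 to 8.66 against 9.91 to 10.23 (-1.73 ± 0.16) and Celf2 was higher by 0.75 ± 0.14. Of the 36 splicing factors 2 were higher and 3 lower (4 and 2 with the actin covariate). The histone deacetylase Hdac9 was lower by -0.81, in a chromatin list with 1 of 26 higher and 6 lower (1 and 3 with the actin covariate); its call was lost with the 18S block, with the actin covariate and in the dim 18S set.

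MAP kinase phosphatases and immediate early genes had 9 of 29 higher and 2 lower (4 and 1 in the dim 18S set). Egr3 read 6.52 to 7.78 in 6 failing mice, 4.30 in mouse 5 and 3.02 to 5.96 in sham (2.44 ± 0.54), and Egr2 was higher by 2.02. The feedback inhibitor Spry2 was lower by -0.64, a call that was lost with the actin covariate and in the dim 18S set. Interferon and antigen presentation genes had 14 of 30 higher and 2 lower (median 0.30): Ifit3 (0.67), Irf7 (0.65, lost with the actin covariate) and the class I gene H2-D1 (0.63, lost in all 3 technical fits) were higher. The class II genes H2-Aa (-0.68) and H2-Eb1 (-0.66) were the 2 that were lower, and both calls were lost in all 3 technical fits, with the series of the labelled animal numbers as a block and without heart failure mouse 5, sham mouse 2 or sham mouse 3 (that of H2-Eb1 also without heart failure mouse 4 or 6). With the 18S block 9 of the list were higher, and with the actin covariate 7.

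In the antioxidant, iron and haem list 8 of 35 were higher and 8 lower, close to the shares of 20.4% and 18.9% over all genes. In the dim 18S set the counts were 5 and 9. Nox4, an oxidase that makes hydrogen peroxide, read 7.00, 7.85 and 9.22 with heart failure and 4.31, 4.84, 4.36, 4.14 and 2.99 in sham, a difference of 3.74 ± 0.50 without overlap. The secreted glutathione peroxidase Gpx3 was higher by 1.25 (lost in the dim 18S set) and the iron exporter Slc40a1 lower by -1.15. Of 31 genes of cholesterol and lipid synthesis 6 were lower, beside 18.9% over all genes, and 1 was higher; Fdft1, squalene synthase, read 9.15 to 9.48 against 10.24 to 10.52 (-1.09 ± 0.11), and Dgat2 of triglyceride synthesis differed by -0.79. Srebf2 was the gene that was higher (0.80, lost in the dim 18S set). The clock list had 2 of 16 higher and 1 lower, and no call in the dim 18S set. Cry1 was lower by -0.77 and lost its call there, and Nr1d1 (0.91) lost its call in all 3 technical fits, with the animal-number series as a block and without heart failure mouse 3, 4, 6 or 7 or sham mouse 1, 2 or 3.

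Marker genes of other cells gave the following levels beside these lists. Fibroblast markers were higher in 10 of 12 (median 0.65), with a mean level 0.73 to 1.11 above the sham mean in all 7 failing mice and -0.25 to 0.38 around it in sham; the list holds matrix genes such as Col1a1 (2.54 ± 0.28), so it is not separate from them. Cardiomyocyte markers were lower in 5 of 12 with a median of -0.11 (3 with the 18S block, 2 in the dim 18S set and 2 with the actin covariate). Among them were Pln (-0.17, lost with the actin covariate and in the dim 18S set) and Ryr2 (-0.23, lost with the mean of probe sets and after the second quantile normalization). Endothelial markers were higher in 4 of 12 (Pecam1 by 0.37, Tie1 by 0.42, Esam and Robo4) and in none with the 18S block, in the dim 18S set or with the actin covariate. Pecam1 and Tie1 also lost their call without sham mouse 1 or 2. Of 15 macrophage markers 1 was higher (Cx3cr1, 0.79; 4 in the dim 18S set), and their mean level ran from 8.10 to 8.80 with heart failure and from 7.90 to 9.34 in sham. The Cx3cr1 call was lost without heart failure mouse 3, 4 or 7 or sham mouse 4 or 5, in the fit of the 12 arrays alone, without the filter and after the second quantile normalization. Lymphatic markers were higher in 2 of 5 (Pdpn and Flt4). Smooth muscle and pericyte markers were higher in 2 of 10 and lower in 2 (1 and 1 in each of the 3 technical fits), skeletal muscle markers lower in 2 of 2 (0 in each of them), and lymphocyte, mast cell, adipocyte, red cell, nerve and epicardial markers had 1 to 3 measured members each, of which none was called. The part of fibroblast content in the lists above was not tested.

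Set directly against the banded mice without heart failure, the failing mice had 411 genes higher (3.83%) and 606 lower (5.65%) by the same fit. Without heart failure mouse 2 these were 234 and 365, without mouse 1 the higher count was 262 and without mouse 4 it was 261, and in the dim 18S set 66 were higher and 83 lower. Banded mice 5, 6 and 7 without failure had a bright 18S signal (10.99 to 11.76), whereas all failing mice had a dim signal. Against a 1.2-fold threshold 3 genes were higher and 3 lower. The list counts and genes that follow are from the main fit, and their calls in the 3 technical fits are not given. By this test channels were lower in 10 of 21, with Scn4b lower by -1.27 ± 0.27 (limma adjusted p = 0.0082) and Kcnd2 by -0.68. Complex I was lower in 15 of 33, fatty acid genes in 7 of 25 and mitochondrial ribosomal proteins in 13 of 51, and none of these was higher. Growth factors were higher in 10 of 28, with Tgfb2 higher by 1.03, and the cytoskeletal list in 8 of 39. Runx1 (1.29), Frzb (1.09), Grk5 (0.61) and Rbfox1 (-0.88) also differed.

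Other genes that stood far from sham did not pass this test. Nppa differed from the banded mice without failure by 0.26 (adjusted p = 0.24), Nppb by 0.11, Acta1 by 0.06 and Slc7a5 by 0.14 and Bdh1 by 0.24. Banded mice without failure had 1164 genes higher (10.8%) and 701 lower (6.53%) than the same sham mice. Because both comparisons with sham share their controls, the values are only set side by side. The median of the fatty acid list was -0.40 with failure and -0.24 without, of complex I -0.28 and -0.12, and of the channels -0.55 and -0.30. That of mitosis was 0.72 and 0.19, and that of the fetal list 1.23 and 1.03. Some mitosis members passed the filter mainly in the failing group, so the mitosis medians are only a description.

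**Figure D3:**
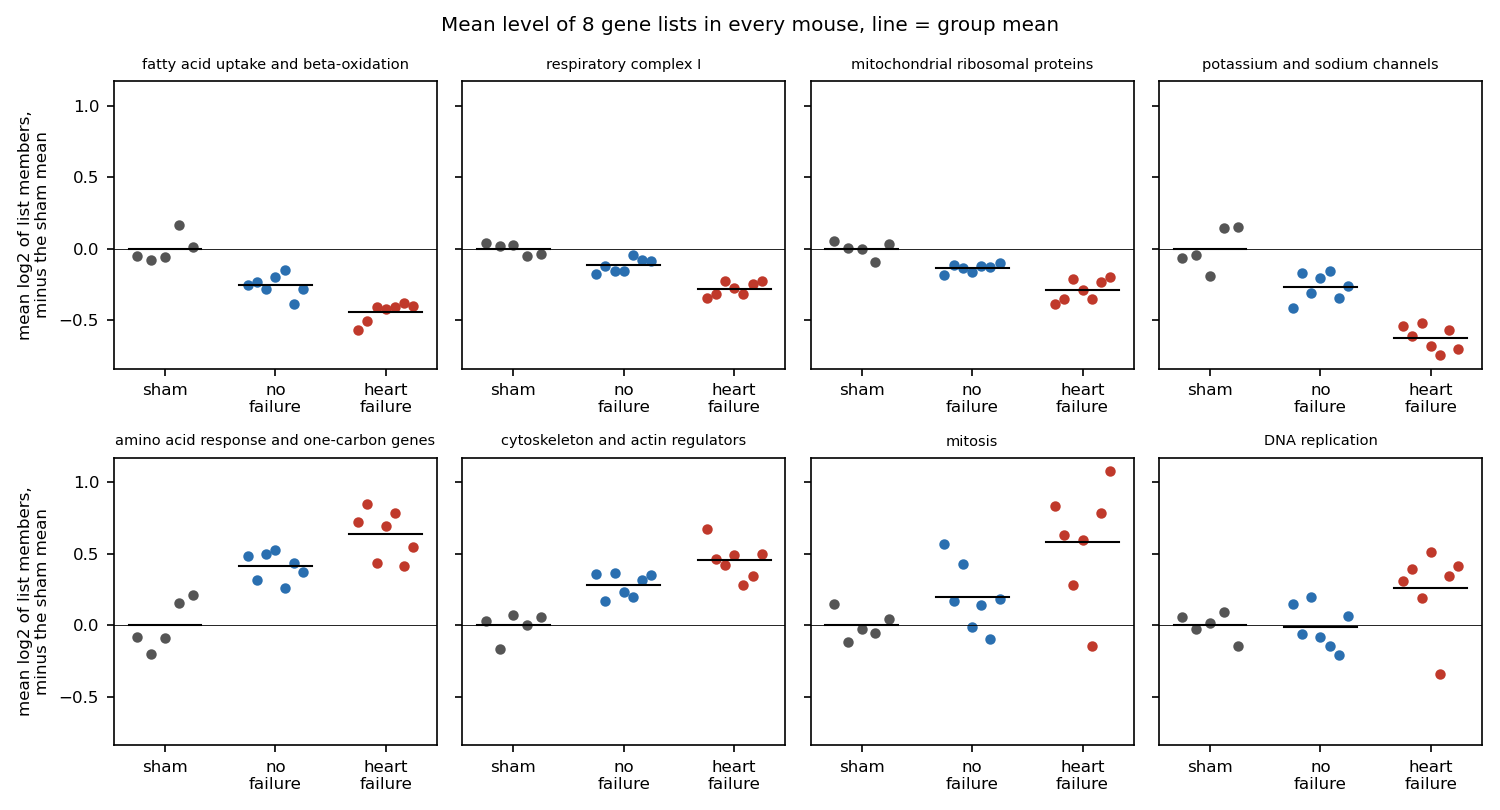
Mean log2 value over the measured members of 8 gene lists in each mouse, minus the mean of the sham mice (y axis), for 5 sham mice, 7 banded mice without failure and 7 with heart failure, with a line at the group mean. The failing mice lie 0.52 to 0.75 below the sham mean for the channels. For mitosis and DNA replication 1 failing mouse, mouse 5, lies at -0.14 and -0.34 and the others above 0. Values above 0 are not confined to the failing mice. For mitosis the sham mice run from -0.12 to 0.15 and the banded mice without failure from -0.09 to 0.57. For DNA replication these ranges are -0.14 to 0.09 and -0.20 to 0.20. Some mitosis members passed the filter mainly in the failing group, so the mitosis levels are only a description.

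The spread between the 7 failing ventricles was low at the median. Over the 10249 genes above the filter on all 12 arrays, the median SD between mice was 0.15 with heart failure and 0.19 in sham. The sham arrays came from both the bright and the dim 18S set and the failing arrays from the dim set alone. The part of this in the 2 SDs was not tested. Among the failing mice, mouse 5 was the exception. It stood apart from the other 6, by a gap of more than 0.568 of the range of the group, in 925 of these genes (9.03%), whereas the other 6 mice did so in 59 to 188 each. Such a gap arises by chance in about 1 in 20 groups, and over all 7 mice it was seen in 14.5% of the genes, against 7.41% in sham.

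Mouse 5 stood far from the other 6 in several genes. Lcn2, a lipocalin that binds bacterial iron carriers, read 12.61 in mouse 5 and 4.59 to 6.63 in the other 6, and S100a8, a calcium-binding protein of neutrophils, 11.77 against 4.87 to 6.13. Sham mouse 3 was high for both as well, at 10.21 and 9.63. Fkbp5, a co-chaperone of steroid receptors, read 13.13 against 8.47 to 10.67, Rasd1, a small G protein named for its induction by dexamethasone, 10.44 against 5.41 to 5.81, and Fam107a 12.01 against 5.08 to 8.69. Serpina3n, an acute phase protease inhibitor, read 13.31 against 8.31 to 10.48. The apelin gene Apln read 4.89 against 7.64 to 8.02, its receptor Aplnr 8.89 against 11.74 to 12.54, and Esm1 of endothelial tip cells 3.64 against 6.10 to 7.56. Fkbp5, Apln, Aplnr and Esm1 were chosen after their values were seen.

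**Figure D4:**
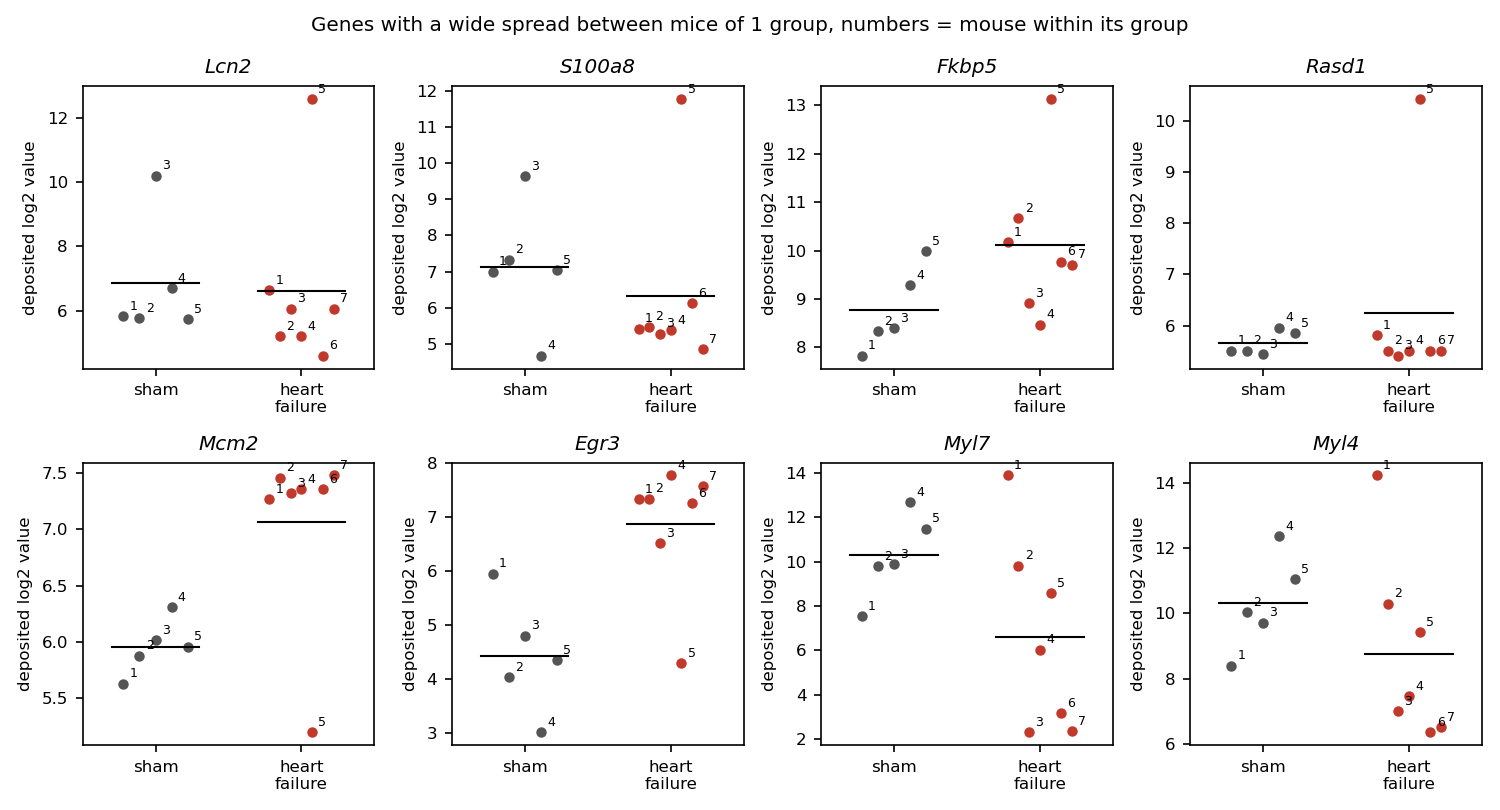
Deposited log2 values (y axis, a scale of its own in each panel) of 8 genes with a wide spread within a group, 1 numbered point per mouse and a line at the group mean. Heart failure mouse 5 is alone at the top for Lcn2, S100a8, Fkbp5 and Rasd1 and lowest of its group for Mcm2 and Egr3, and Myl7 and Myl4 are spread over both groups.

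The counts over all genes changed little without this mouse. Without it 2249 genes were higher (21.0%) and 2027 lower (18.9%), and 3944 of the 4220 called genes were called again. Where mouse 5 went against its group, removing it moved the difference further from 0, as for Egr3 (2.44 to 2.87) and Kdelr3 (0.90 to 1.17). Serpina3n passed with it included (2.25; the call was lost without sham mouse 1, 2 or 5 and in all 3 technical fits). Of the other genes in which mouse 5 was highest, Lcn2, S100a8, Fkbp5 and Rasd1 did not pass: Lcn2 differed by -0.23, S100a8 by -0.80, Fkbp5 by 1.35 and Rasd1 by 0.59. Without mouse 5, S100a8 was lower by -1.70 (limma adjusted p = 0.032) and Serpina3n higher by 1.65. That fit dropped the failing mouse highest for S100a8 and kept sham mouse 3, the highest sham value at 9.63. The S100a8 call thus hangs on which mouse was left out and is only a description.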

How the data were processed

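Total RNA of the left ventricle of each mouse was labelled and hybridised to 1 array of 45101 probe sets. The authors deposited log2 values; the submitters' processing notes name GCRMA, without a version, as the tool, and the raw scans were not analysed. They run from 2.19 to 16.77, and 50.5% lie under 3, where the method sets values for absent signal, so differences of dim genes are compressed. Array data have no read depth; the number of mice limits the precision.

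Of the probe sets, 34958 were listed with 1 gene symbol, 932 with several and 9211 were unnamed here. After the filter (log2 above 4 on at least 5 arrays) the probe set with the highest mean stood for each of 10733 genes. One limma fit (limma 3.58.1, R 4.3.3; lmFit and eBayes) over 3 groups and 19 arrays gave all differences, with Benjamini-Hochberg adjustment over all genes and a threshold of 0.05. The fit was tested on simulated data. Nothing says more of replicates than 1 array per mouse, so the p-values measure the spread between these mice.

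Of 1459 genes in 41 function and 15 marker lists, 1222 were measured, 110 lay below the filter and 127 were not matched to a probe set of 1 symbol. The members and lists were chosen with earlier results of these data known. Named were the 12 largest rises and falls among genes above 4 on all 12 arrays, up to 3 in each direction per list, up to 6 genes measured in 1 group only, the 6 genes of largest SD among failing mice, 6 fixed genes, and marker genes where 5 or fewer passed. Other named genes (Uchl1, Enah, Rcan1, Acta1, Phgdh, Atf4, Kcnd2, Kcnj5, Bmp4, Fstl3, Mki67, Smc4, Ccna2, H2-D1, Myl7, Sln and those of mouse 5) were chosen after their values were seen. Promoters came from RefSeq; 8715 of the genes had one, and of several the first was used.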

Additional observations from a re-analysis of the deposited data

Results flagged for a closer look

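Among the genes named, 43 groups of values had 1 mouse set apart from the rest of its group by a gap that was large against the range of the group. Chance gives such a gap in about 1 in 20 groups, and 185 genes were looked at in both groups. Values are deposited log2 values, and the cause of the gaps was not tested.

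Heart failure mouse 5 accounted for 20 of them. It was the lowest of its group for Adra1b 3.59, Cdk1 3.81, Ctf1 6.51, Egr3 4.30, Fgf16 5.42, Igf1 9.15, Kdelr3 6.31, Mcm2 5.2, Mrgprh 2.39, Tbc1d10c 4.52, Ttll1 10.73, Tubb2a 10.57 and Tubb2b 5.96. It was the highest for Itpr2 8.63, Lcn2 12.61, Ppara 10.51, Rasd1 10.44, Ryr2 14.62, S100a8 11.77 and Slc27a1 9.12.

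Heart failure mouse 1 was highest of 7 for Ccn5 10.32. Heart failure mouse 3 was highest of 7 for Ldhb 14.81. Heart failure mouse 3 was lowest of 7 for Aqp4 2.19 and Slc1a3 5.23. Heart failure mouse 4 was highest of 7 for Runx1 6.73. Heart failure mouse 6 was lowest of 7 for Hyou1 5.71. Heart failure mouse 7 was highest of 7 for Acta1 15.74. Heart failure mouse 7 was lowest of 7 for Ifit3 8.86 and Trdn 12.10. Sham mouse 1 was highest of 5 for Mrgprh 5.27. Sham mouse 3 was highest of 5 for Igf1 10.44, Lcn2 10.21 and Sfrp2 7.59. Sham mouse 3 was lowest of 5 for Kcnv2 4.34. Sham mouse 4 was highest of 5 for Ctf1 8.24 and Dgat2 12.26. Sham mouse 4 was lowest of 5 for Hsp90aa1 11.42, Manf 10.20, Nppb 11.74 and Ttll1 13.05. Sham mouse 5 was highest of 5 for Ppara 10.48. Sham mouse 5 was lowest of 5 for Lgals4 7.44 and Thbs4 6.66.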

How the results depend on the processing

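Of 185 named genes 175 were called. Of the called genes 127 were also called in all 4 technical alternatives (18S block, dim 18S set, actin covariate, animal-number series as a block), and 15 lost the call without 1 mouse. Within each of the 3 animal-number series 164 had the same sign. Sham mouse 4 was the only sham mouse of series 2 and sham mouse 5 the only sham mouse of series 3, so these signs rest on few mice. Of the 4220 called genes 2949 were called with the 18S block, 2157 in the dim 18S set and 2233 with the actin covariate. Leaving out 1 mouse gave 1797 to 2249 higher and 1723 to 2190 lower genes, 336 to 423 and 139 to 174 at 2-fold, and against banded mice without failure 234 to 458 higher and 365 to 657 lower. For the lists these ranges were 18 to 19 (fatty acids), 29 to 31 (complex I), 28 to 31 (complexes II to V), 34 to 40 (mitochondrial ribosome), 13 to 15 (branched-chain), 14 to 16 (channels), 13 to 13 (fetal), 12 to 16 (mitosis), 24 to 31 (cytoskeleton), 9 to 12 (amino acid response) and 16 to 18 (growth factors).

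Against a 1.2-fold threshold (treat) 707 genes were higher and 495 lower, and 3 and 3 against banded mice; list counts were 9 (fatty acids), 2 (complex I), 3 (complexes II to V), 6 (mitochondrial ribosome), 8 (branched-chain), 9 (channels), 5 (mitosis), 12 (cytoskeleton) and 7 (amino acid response). With the actin covariate 1107 genes were lower, 16 in complex I, and 6 mitosis genes were higher. In the dim 18S set 1208 genes were lower, 66 higher and 83 lower than in banded mice, with 18 in complexes II to V, 22 in the mitochondrial ribosome, 5 in mitosis and 17 in the cytoskeleton. Mitosis gave 10 with the 18S block and 10 with a filter at 5. Against banded mice, array weights gave 827 higher and 1087 lower, and no filter 261 higher.

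Signs turned within series 2 for Itpr2 (-0.009), Hyou1 (0.184), Manf (0.545), Pola1 (0.042), Gadd45b (-0.389), Spry2 (0.056) and H2-D1 (-0.024), within series 3 for Nop58 (-0.039), Calr (-0.053), Srebf2 (-0.34) and Myh6 (0.026), and with the actin covariate for Zbtb16 (-2.25). Sham mouse 4 was the only sham mouse of series 2 and sham mouse 5 the only sham mouse of series 3, so the signs within these series rest on them. The cause was not tested. No paired analysis was possible because the labels give no replicate number that pairs single mice; the animal-number series, which all groups share, gave 2321 higher and 2043 lower genes as a block.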
